A study of Rattus norvegicus with 10 samples.

Results

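The genes described here are 32 genes of cholesterol synthesis, uptake and transport in neonatal rat heart cells, followed in cardiomyocytes and cardiac fibroblasts with and without phenylephrine. They were listed by name, out of 28522 gene symbols, with no threshold on their values but with earlier results of these data known. Of the 32, 19 encode enzymes of the pathway from acetyl-CoA to cholesterol, with Ggps1 of its non-sterol isoprenoid branch counted among them. Another 5 control the sterol regulatory element binding proteins (SREBPs), 4 move cholesterol inside the cell and 4 belong to cholesterol efflux and its liver X receptors (LXRs). All 32 were in the count table, and all 32 were among the 13869 genes that passed the filter on low counts. Ventricular cells came from rats 1 to 3 days old and were separated into cardiomyocyte and fibroblast fractions on a Percoll density gradient. Fibroblasts were used at passage 2, whereas no passage is given for the cardiomyocytes. Differences between the cell types therefore cannot be told apart from differences in passage. At 24 h after plating the cells received serum-free medium, alone or with 10 µM phenylephrine, an alpha-adrenergic agonist that makes cultured cardiomyocytes grow. The time in phenylephrine is not given in the sources used here. RNA sequencing libraries were made from total RNA: 3 of serum-free cardiomyocytes, 3 of phenylephrine-treated cardiomyocytes, 2 of serum-free fibroblasts and 2 of phenylephrine-treated fibroblasts. The labels do not say whether replicates came from separate litters or cultures, so p-values measure the spread between these libraries.

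Animal cells build cholesterol from acetyl-CoA through mevalonate, the isoprenoid diphosphates, squalene and lanosterol. When sterols in the endoplasmic reticulum fall, Scap escorts the SREBPs to the Golgi, where they are cut into active transcription factors that switch on the synthesis genes; Insig proteins hold the complex back when sterols are plentiful. Oxysterols activate the LXRs, which raise the efflux transporters Abca1 and Abcg1. Star, the steroidogenic acute regulatory protein, carries cholesterol to the inner mitochondrial membrane.

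Promoter windows of the synthesis genes are shown first because several of these genes moved together with phenylephrine. RefSeq windows on GRCr8, running from 250 bases before to 50 bases after each gene's start, were available for 26 of the 32 genes, among them 16 of the 19 synthesis genes. Idi1, Hsd17b7 and Msmo1, chosen as synthesis genes that rose with phenylephrine in cardiomyocytes and hold repeated CCAAT boxes, the motif bound by NF-Y, are printed 5′ to 3′ on the gene's own strand, with each CCAAT on either strand in capitals. Idi1 lies at chr17:66547475-66547774 on the minus strand, Hsd17b7 at chr13:84722705-84723004 on the minus strand and Msmo1 at chr16:29746863-29747162 on the plus strand.
Idi1: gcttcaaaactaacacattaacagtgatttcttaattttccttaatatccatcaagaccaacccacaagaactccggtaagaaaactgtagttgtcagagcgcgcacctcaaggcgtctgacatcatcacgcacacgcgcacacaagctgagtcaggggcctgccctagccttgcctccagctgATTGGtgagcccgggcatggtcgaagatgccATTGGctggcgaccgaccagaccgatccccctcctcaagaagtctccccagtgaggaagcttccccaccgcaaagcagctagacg
Hsd17b7: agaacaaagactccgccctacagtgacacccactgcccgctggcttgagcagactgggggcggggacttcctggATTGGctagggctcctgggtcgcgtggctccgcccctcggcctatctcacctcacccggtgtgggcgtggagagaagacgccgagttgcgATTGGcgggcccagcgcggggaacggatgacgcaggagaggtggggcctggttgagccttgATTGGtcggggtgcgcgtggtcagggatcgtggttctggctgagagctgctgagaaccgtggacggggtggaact
Msmo1: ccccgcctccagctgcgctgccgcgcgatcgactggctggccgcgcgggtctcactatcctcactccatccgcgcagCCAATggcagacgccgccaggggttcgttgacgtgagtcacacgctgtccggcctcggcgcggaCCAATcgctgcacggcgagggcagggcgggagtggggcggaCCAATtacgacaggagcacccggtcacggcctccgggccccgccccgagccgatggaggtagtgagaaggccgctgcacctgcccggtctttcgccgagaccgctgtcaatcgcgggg
The capitals mark 2 boxes in Idi1, 3 in Hsd17b7 and 3 in Msmo1. The number of boxes did not separate the genes that rose from those that were not called: Mvk, with 5 boxes, and Mvd, Fdps, Tm7sf2 and Ebp, with 2 each, were not called in cardiomyocytes, whereas Cyp51 and Dhcr7, which rose, had 0 in their windows.

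CCAAT, searched on both strands, was in the windows of 18 of the 26 matched genes (69.2%) and of 13 of the 16 matched synthesis genes. It was in 37.5% of all 33465 promoter windows and in 36.7% of the 11093 windows of tested genes. The Sp1 motif GGGCGG, also on both strands, was in the windows of 20 of 26 genes (76.9%), against 33.1% of all windows and 60.7% of those of tested genes. The median GC content was 63% in the genes' windows and 60.7% in those of tested genes. The SREBP motif TCACNCCAC was in no window of the 26 genes, against 1.12% of all windows and 1.14% of those of tested genes. The LXR motif (a DR4 repeat) was also in none, against 0.00598% of all windows and 0% of those of tested genes. Both exact motifs are so rare in windows that finding none here says little about these genes. The fixed letters of no motif contain those of another, and a match is a description of the window only.

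Total counts ran from 18048944 to 22794744 per library, so that 3 counts corresponded to 0.128 to 0.166 CPM, the library-scaled count. Levels below are CPM with TMM-scaled library sizes, and compare one gene between libraries, not genes with each other. Within the cardiomyocyte groups 1 library of each stood apart from the other pair. The chi-square per degree of freedom between replicates was 22.3 and 23.1 for serum-free replicate 2, against 4.29 between replicates 1 and 3. For phenylephrine replicate 1 it was 18.5 and 23.0, against 3.02 between replicates 2 and 3; the fibroblast pairs gave 14.5 in serum-free medium and 2.41 with phenylephrine. The summed level of 8 fibroblast markers (Col1a1, Dcn, Tcf21 and others) was 6378, 11732 and 6976 CPM in serum-free cardiomyocytes, 14826, 8837 and 8741 CPM in phenylephrine-treated cardiomyocytes and 39137 to 55985 CPM in fibroblasts. The libraries that stood apart had the highest fibroblast marker sums of their groups. By the edgeR test described below, 7 of the 8 were lower in serum-free cardiomyocytes than in serum-free fibroblasts, against 31.7% of all tested genes. Between treated and serum-free cardiomyocytes none of the 8 was called, with log2 changes from -1.48 to 0.49, so single markers and their sum can differ in direction. The summed level of 8 cardiomyocyte markers was 39524 to 49802 CPM in the cardiomyocyte libraries and 546 to 614 CPM in the fibroblast libraries, as the labels name them. None of these markers was at 0 in all libraries. In bulk RNA, fewer cells of a type and less RNA per cell cannot be told apart.

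The first comparison asked how the pathway differs between the cell types in serum-free medium. Cholesterol synthesis genes were lower in cardiomyocytes than in fibroblasts: by edgeR's quasi-likelihood test with Benjamini-Hochberg adjustment (called at an adjusted p below 0.05), 17 of the 19 were lower and none was higher (0 also at an unadjusted p below 0.05 and by DESeq2). Their median log2 difference was -1.09, against 0.02 over all tested genes. Of all 32 genes, 21 were lower and 4 higher. The background is high, since 31.7% of all genes were called lower and 34.5% higher. The cardiomyocyte and fibroblast libraries of 23 of the 32 genes did not overlap with cardiomyocytes lower, and those of 4 did not overlap with cardiomyocytes higher, against 37.5% and 39.6% of all genes.

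**Figure D1:**
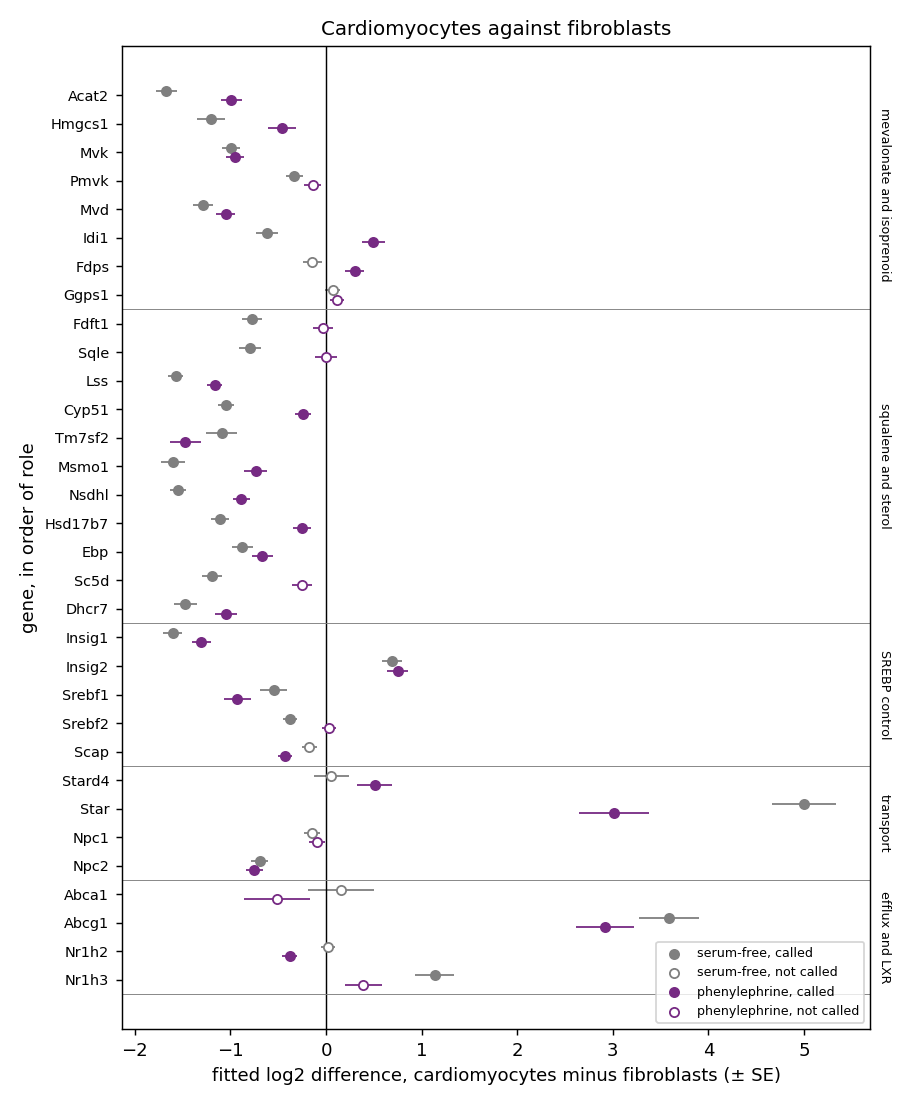
Fitted log2 difference between cardiomyocytes and fibroblasts (x axis, points with SE bars) for each of the 32 genes, in grey for serum-free medium and purple for phenylephrine, with filled points called by edgeR. Values below 0 are lower in cardiomyocytes; most synthesis genes lie below 0, and Idi1 goes from -0.62 to 0.50.

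Along the pathway, 6 of the 8 mevalonate and isoprenoid genes and 11 of the 11 squalene and sterol genes were lower in serum-free cardiomyocytes. Fdps and Ggps1, the synthases of farnesyl and geranylgeranyl diphosphate, were the 2 synthesis genes that did not pass the test, with log2 differences of -0.14 ± 0.0969 (SE; adjusted p = 0.21, edgeR) and 0.07 ± 0.0760 (adjusted p = 0.449, edgeR). Farnesyl diphosphate feeds prenylation, dolichol and ubiquinone as well as sterols, whereas geranylgeranyl diphosphate lies on a branch that does not lead to sterols.

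Lss, lanosterol synthase, which closes the sterol ring system, had the smallest adjusted p of the 32 genes. It was at 55.8, 63.4 and 56.1 CPM in serum-free cardiomyocytes and at 186 and 162 CPM in serum-free fibroblasts. The groups were far apart: the fibroblast mean of 174 ± 17.3 CPM (SD, n = 2) was 2.98-fold the cardiomyocyte mean of 58.5 ± 4.31 CPM (SD, n = 3), a log2 difference of -1.57 ± 0.0746 (SE; adjusted p = 6.63e-09, edgeR). Nsdhl, a dehydrogenase that helps remove the methyl groups of lanosterol, was at 52.4, 58.1 and 53.8 CPM in cardiomyocytes and at 178 and 142 CPM in fibroblasts. Every fibroblast library lay above every cardiomyocyte library, and the fitted difference was 2.92-fold (log2 -1.55 ± 0.0865, adjusted p = 2.72e-08, edgeR). Acat2, the cytosolic thiolase that begins the pathway, was at 59.2, 62.7 and 52.3 CPM in cardiomyocytes and at 210 and 159 CPM in fibroblasts. The fibroblast libraries were again all higher, by 3.18-fold (log2 -1.67 ± 0.110, adjusted p = 1.91e-07, edgeR).

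The other sterol genes were also lower, by amounts that varied. Log2 differences ran from -0.78 for Fdft1, squalene synthase, and -0.80 for Sqle, squalene epoxidase, to -1.60 for Msmo1, the methylsterol oxidase. Cyp51, lanosterol demethylase, Hsd17b7, a sterol ketoreductase, Tm7sf2, a sterol reductase, and Sc5d, a sterol desaturase, lay between, at -1.04, -1.11, -1.09 and -1.19. Ebp, the sterol isomerase, differed by -0.88, and Dhcr7, the reductase of the last step, by -1.47. In the mevalonate arm, Hmgcs1, HMG-CoA synthase, differed by -1.21, Mvk, mevalonate kinase, by -0.99, Mvd, the decarboxylase, by -1.28, Idi1, the isopentenyl diphosphate isomerase, by -0.62, and Pmvk, phosphomevalonate kinase, by -0.33. The calls of Pmvk and of Srebf1, described next, were lost without serum-free fibroblast replicate 1 and replicate 2, respectively.

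Genes of SREBP control split. Insig1, which retains the SREBP complex and is itself an SREBP target, was at 260, 263 and 263 CPM in serum-free cardiomyocytes and at 915 and 680 CPM in fibroblasts. The cardiomyocyte libraries were close together and all below the fibroblast libraries, which differed from each other more than those did (log2 -1.60 ± 0.0984, 3.04-fold, adjusted p = 6.07e-08, edgeR). Insig2, its paralogue, went the other way, at 16.3 to 18.02 CPM in cardiomyocytes against 10.5 and 10.97 CPM in fibroblasts (log2 0.69 ± 0.109, adjusted p = 0.000153, edgeR). Srebf1 and Srebf2, the SREBP genes, were lower in cardiomyocytes, by log2 differences of -0.55 ± 0.141 (adjusted p = 0.00613, edgeR) and -0.38 ± 0.0746 (adjusted p = 0.00083, edgeR). Scap did not pass the test, at -0.17 ± 0.0760 (adjusted p = 0.0622, edgeR).

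Transport and efflux genes were not lower as a group. Star was at 22.6, 14.7 and 20.0 CPM in serum-free cardiomyocytes and at 0.759 and 0.417 CPM in fibroblasts. The fitted difference was 32.1-fold (log2 5.0 ± 0.337, adjusted p = 2.24e-07, edgeR), and no library overlapped. Abcg1, a sterol efflux transporter, was at 63.7 to 106 CPM in cardiomyocytes against 5.82 and 8.96 CPM in fibroblasts, 12.0-fold higher (log2 3.59 ± 0.310, adjusted p = 9.75e-06, edgeR). Nr1h3, which encodes LXR alpha, was 2.20-fold higher at 3.80 to 5.31 CPM against 2.07 and 2.19 CPM (adjusted p = 0.000397, edgeR). Npc2, which binds cholesterol in the lysosome, was lower, at 210 to 232 CPM against 360 and 365 CPM (log2 -0.69 ± 0.0884, adjusted p = 2.9e-05, edgeR). Abca1, Nr1h2 (LXR beta), Npc1, the lysosomal partner of Npc2, and Stard4, a sterol carrier, had log2 differences of 0.16, 0.02, -0.15 and 0.06, none of which passed the test.

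Abcg1, Abca1 and Nr1h3 are also expressed by macrophages, and leukocyte markers differed between the cell types. The summed level of 10 leukocyte markers was 149 to 180 CPM in serum-free cardiomyocytes and 11.7 and 23.0 CPM in serum-free fibroblasts. All 10 were higher in cardiomyocytes by the same test, against 34.5% of all tested genes. Of 7 tested endothelial markers 5 were higher and 2 lower, and of 7 epicardial and mesothelial markers 5 were higher and 1 lower. Of 7 smooth muscle and pericyte markers 4 were higher and 2 lower, against 34.5% and 31.7% of all tested genes. The part of these markers in the difference was not tested. Steroidogenic cells, which also use Star, were looked for with 5 markers of which 3 were in the table. Cyp17a1 was at 0 in every library, and the summed level of the 3 was 0.106 to 0.386 CPM in the cardiomyocyte libraries.

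With phenylephrine in both cell types, most synthesis genes were again lower in cardiomyocytes. Of the 19, 12 were lower in cardiomyocytes and 2, Idi1 and Fdps, were higher, with a median log2 difference of -0.46. Of all 32 genes, 17 were lower and 6 higher, against 31.2% and 33.7% of all tested genes. The libraries of 18 genes did not overlap with cardiomyocytes lower and those of 8 with cardiomyocytes higher, against 39% and 40.4% of all genes. In both media 15 genes were lower and 3 (Insig2, Star and Abcg1) were higher. The share of all tested genes called in both media was not computed, so these counts have no background to set them against. The 2 cell type comparisons share no library.

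Idi1 was called in opposite directions in the 2 media. It was at 93.6, 108 and 91.8 CPM in serum-free cardiomyocytes against 171 and 129 CPM in serum-free fibroblasts, and at 149, 166 and 167 CPM in treated cardiomyocytes against 109 and 119 CPM in treated fibroblasts. No libraries overlapped in either medium, but the order of the cell types was exchanged (log2 -0.62 ± 0.116, adjusted p = 0.00076, and 0.50 ± 0.119, adjusted p = 0.00375, edgeR). Fdps was higher in treated cardiomyocytes than in treated fibroblasts, by log2 0.30 ± 0.0980 (adjusted p = 0.0184, edgeR), a call lost without either treated fibroblast library.

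The genes with the smallest adjusted p with phenylephrine were Lss, Insig1, Mvk and Nsdhl. Lss was at 67.2, 64.3 and 65.4 CPM in treated cardiomyocytes and at 148 and 147 CPM in treated fibroblasts, 2.24-fold apart (adjusted p = 9.52e-08, edgeR). Insig1 was at 252, 248 and 255 CPM against 622 and 621 CPM, 2.47-fold apart (adjusted p = 3.8e-07, edgeR). Mvk was at 18.6, 16.7 and 18.2 CPM against 35.4 and 33.4 CPM, 1.93-fold apart (adjusted p = 3.38e-06, edgeR), and Nsdhl at 69.0, 67.5 and 66.5 CPM against 123 and 127 CPM, 1.85-fold apart (adjusted p = 3.43e-06, edgeR). For these genes every treated fibroblast library lay above every treated cardiomyocyte library. By contrast Fdft1 and Sqle had log2 differences of -0.04 ± 0.104 and 0.00 ± 0.117 with phenylephrine, and neither passed the test. Scap and Nr1h2 passed it with phenylephrine, both lower in cardiomyocytes, at -0.43 ± 0.0758 (adjusted p = 0.000404, edgeR) and -0.38 ± 0.0769 (adjusted p = 0.00104, edgeR). Stard4 was higher in treated cardiomyocytes, at 0.51 ± 0.186 (adjusted p = 0.0344, edgeR), a call lost without phenylephrine cardiomyocyte replicate 2 or 3 or phenylephrine fibroblast replicate 1. Cyp51, Hsd17b7 and Hmgcs1, lower by -0.24, -0.25 and -0.46, each also lost their call without at least 1 treated library; without phenylephrine fibroblast replicate 2 all 3 were lost.

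**Figure D2:**
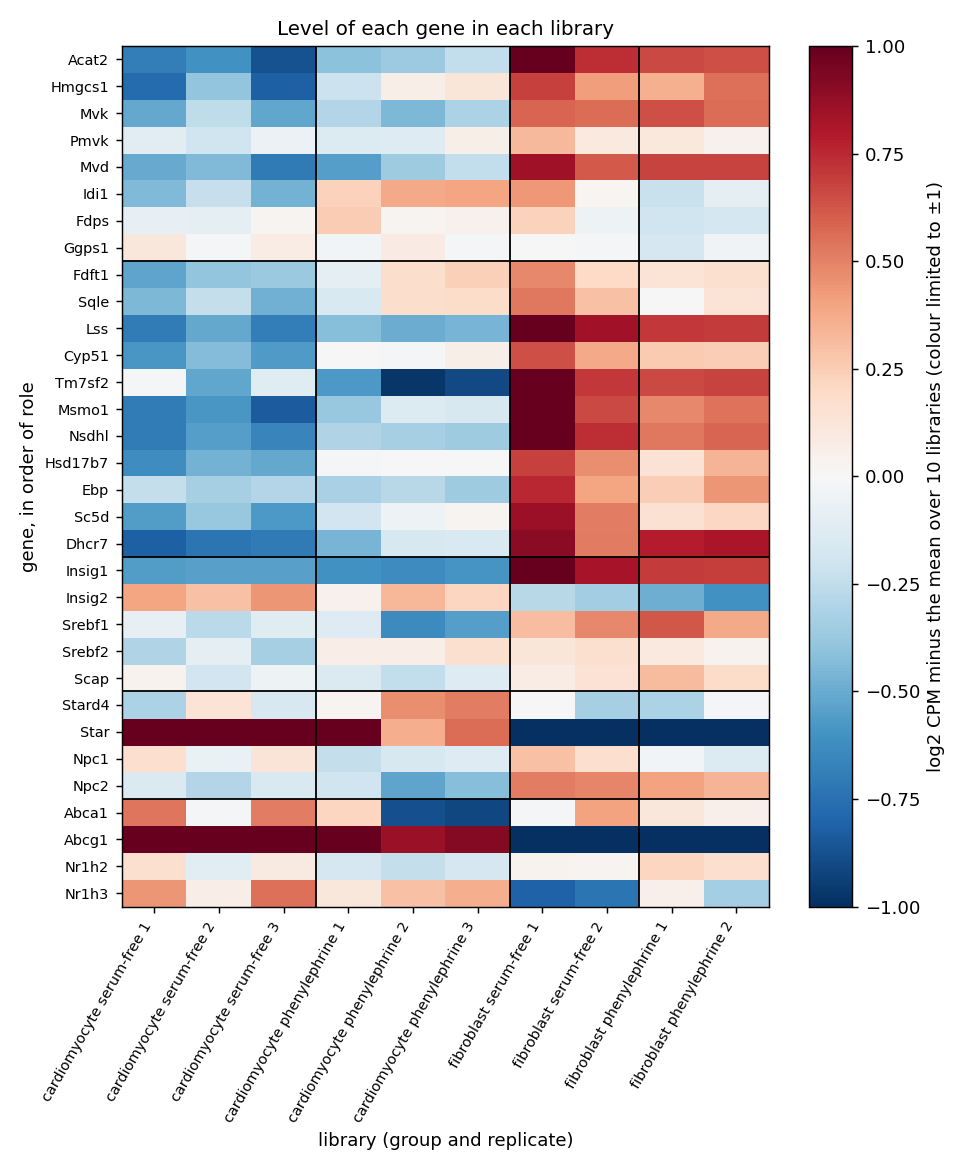
Log2 CPM of each of the 32 genes (rows, by role) in each of the 10 libraries (columns), minus the mean of the gene over all libraries, with the colour limited at 1 in either direction. Most synthesis genes are high in the fibroblast libraries, but Idi1 and Fdps are higher in treated cardiomyocytes than in treated fibroblasts. Star and Abcg1 are high in the cardiomyocyte libraries.

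The next comparison asked what phenylephrine did in cardiomyocytes. Synthesis genes rose: 9 of the 19 were higher with the drug and none was lower by edgeR (12 and 1 at an unadjusted p below 0.05, and 11 and 1 by DESeq2), with a median log2 change of 0.38 against -0.0013 over all genes. Of all 32 genes, 10 were higher and 1, Star, was lower. In the same comparison 1.79% of all tested genes were called higher and 1.84% lower. In 13 of the 19 synthesis genes every treated library lay above every serum-free library, against 10.9% of all genes.

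**Figure D3:**
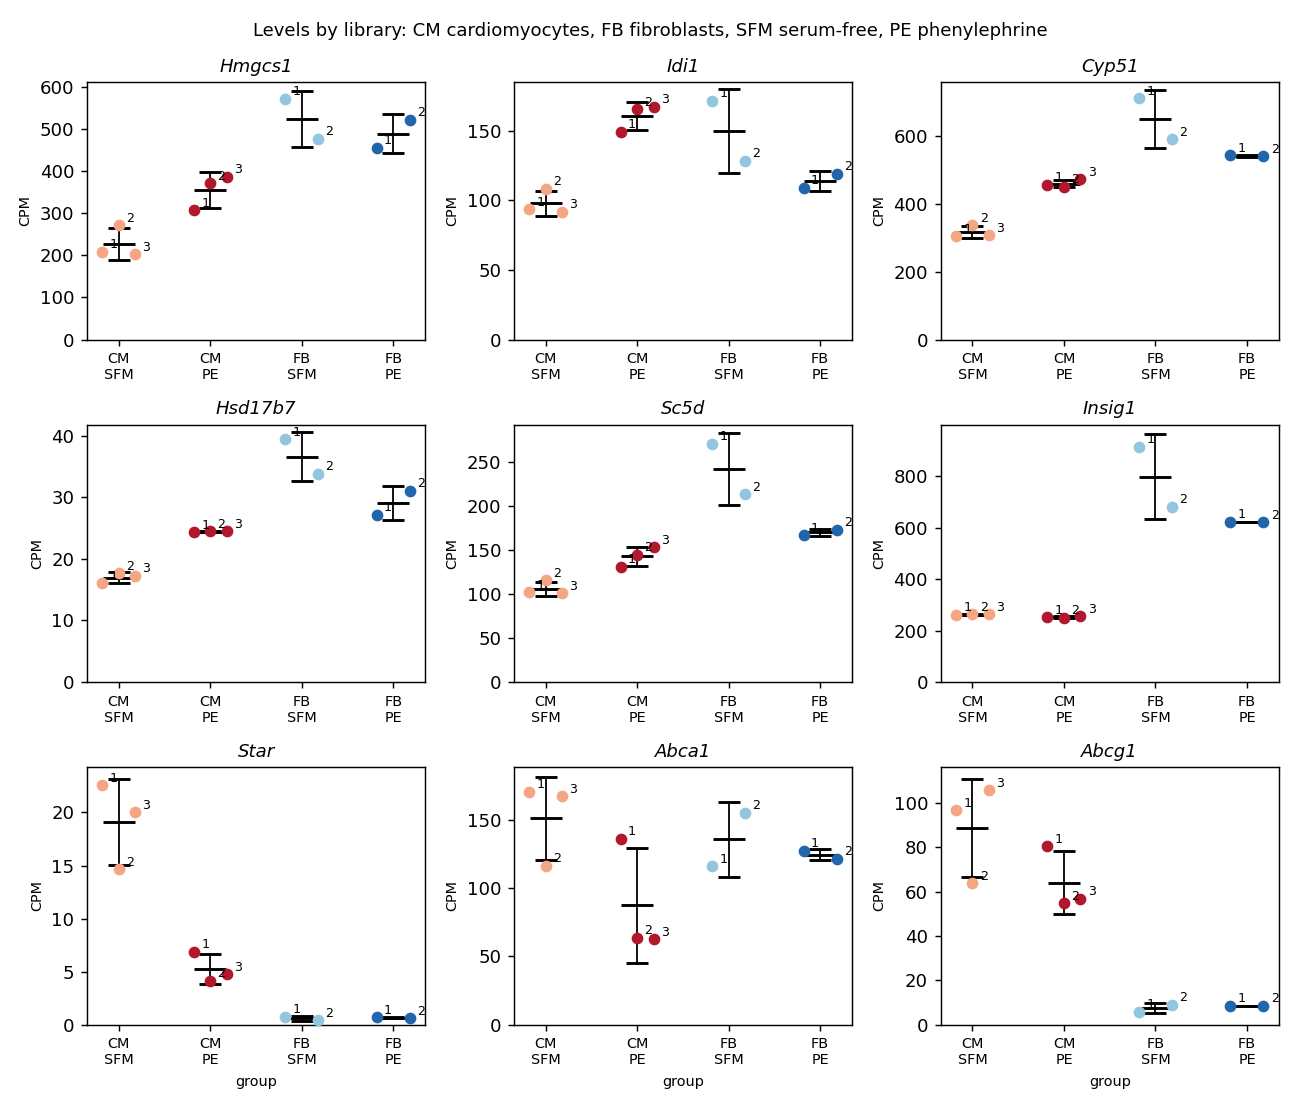
Level in CPM (y axis, from 0) of 9 genes in each library, by group; points are libraries with their replicate number, and the horizontal mark and bars are the mean and SD. In cardiomyocytes the treated libraries of Hmgcs1, Idi1, Cyp51, Hsd17b7 and Sc5d lie above the serum-free ones, those of Star lie below, and those of Abca1 and Abcg1 overlap.

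Among the early enzymes, Hmgcs1 was at 209, 271 and 202 CPM in serum-free medium and at 307, 372 and 387 CPM with phenylephrine. All treated libraries were higher, by 1.56-fold (log2 0.64 ± 0.132, adjusted p = 0.0345, edgeR). Idi1 moved from the 91.8 to 108 CPM given above to 149 to 167 CPM, again with no overlap and with the largest synthesis gene change of the comparison, 1.64-fold (log2 0.72 ± 0.106, adjusted p = 0.0119, edgeR). Acat2 was at 72.2, 74.4 and 80.8 CPM with phenylephrine, above all its serum-free libraries, but its change of 0.38 ± 0.102 missed the threshold (adjusted p = 0.0623, edgeR). The kinases and the decarboxylase showed smaller values: 0.07 for Mvk, 0.05 for Pmvk and 0.17 for Mvd, none past the test. Nor did Fdps, at 0.16 ± 0.0869 (adjusted p = 0.31, edgeR), or Ggps1, at -0.05 ± 0.0678 (adjusted p = 0.732, edgeR).

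At the entry into sterols, Fdft1 was at 121, 132 and 134 CPM in serum-free medium and at 163, 196 and 205 CPM with phenylephrine. The groups did not overlap (1.46-fold, log2 0.54 ± 0.0935, adjusted p = 0.0186, edgeR). Sqle, whose enzyme is a control point of the pathway, was at 128, 149 and 126 CPM and then at 158, 198 and 200 CPM. Its treated libraries were also all higher (1.38-fold, log2 0.46 ± 0.105, adjusted p = 0.0411, edgeR). Lss did not pass the test, at 0.17 ± 0.0691 (adjusted p = 0.182, edgeR).

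Cyp51 gave the smallest adjusted p of the synthesis genes. It was at 304, 336 and 307 CPM in serum-free medium and at 455, 450 and 472 CPM with phenylephrine. The gap between the groups exceeded the spread within either (1.45-fold, log2 0.54 ± 0.0750, adjusted p = 0.00671, edgeR). Hsd17b7 was at 15.96, 17.7 and 17.3 CPM and rose to 24.3, 24.5 and 24.5 CPM, with the treated libraries nearly equal (1.44-fold, log2 0.53 ± 0.0834, adjusted p = 0.0138, edgeR).

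The remaining sterol enzymes that rose were Msmo1, Sc5d and Dhcr7. Msmo1 was at 108, 117 and 98.2 CPM and then at 135, 159 and 157 CPM (1.39-fold, log2 0.48 ± 0.113, adjusted p = 0.0474, edgeR). Sc5d was at 102, 115 and 101 CPM and then at 131, 144 and 153 CPM (1.35-fold, log2 0.43 ± 0.0934, adjusted p = 0.0362, edgeR). Dhcr7 was at 32.01, 34.0 and 34.6 CPM and then at 40.8, 50.5 and 50.8 CPM (1.41-fold, log2 0.50 ± 0.109, adjusted p = 0.0389, edgeR). In each of these genes all treated libraries lay above all serum-free libraries, and phenylephrine replicate 1 was the lowest of its group. Nsdhl, at 69.0, 67.5 and 66.5 CPM with phenylephrine, did not overlap with serum-free medium either, but missed the threshold (log2 0.31 ± 0.0800, adjusted p = 0.06, edgeR). Ebp gave -0.03 ± 0.103 (adjusted p = 0.893, edgeR). Tm7sf2 did not pass either, at -0.61 ± 0.153 (adjusted p = 0.06, edgeR), with 23.8 to 33.7 CPM in serum-free medium and 17.4 to 22.9 CPM with phenylephrine.

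These calls rested on few libraries. Leaving out serum-free cardiomyocyte replicate 1 or 3, or phenylephrine cardiomyocyte replicate 2 or 3, left 1 gene called higher, Cyp51, in place of 10. The number of all genes called fell as well, from 503 to 43, 48, 32 and 51, in that order. Leaving out phenylephrine fibroblast replicate 1 or 2 left 4. Without serum-free replicate 2 there were 14 and without phenylephrine replicate 1 there were 11; without both of these libraries, which stood apart, there were 15 higher and 8 lower of the 32, and 3486 genes called in all in place of 503. Cyp51 and Star were called under all 17 alternatives. In 12 of the 19 synthesis genes phenylephrine replicate 1 was the lowest treated library, and in 12 serum-free replicate 2 was the highest untreated one. The median log2 ratio of the 19 genes to the serum-free mean was -0.06, 0.09 and -0.04 in the serum-free libraries and 0.30, 0.36 and 0.48 in the treated ones, so the groups did not overlap in this summary.

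Of the SREBP control genes, Srebf2 rose with the enzymes. It was at 123, 142 and 120 CPM in serum-free cardiomyocytes and at 158, 158 and 169 CPM with phenylephrine, with no overlap (1.26-fold, log2 0.34 ± 0.0673, adjusted p = 0.027, edgeR). Its call too was lost without the libraries that ended the others. Insig1 was at 248 to 255 CPM against 260 to 263 CPM (log2 -0.06 ± 0.0895, adjusted p = 0.745, edgeR), with the treated libraries just below. Insig2, Srebf1 and Scap gave -0.18, -0.27 and -0.11, none past the test.

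Star fell in cardiomyocytes. It was at 22.6, 14.7 and 20.0 CPM in serum-free medium and at 6.84, 4.13 and 4.73 CPM with phenylephrine. The lowest untreated library lay above the highest treated one, and the fall was 3.65-fold (log2 -1.87 ± 0.206, adjusted p = 0.00241, edgeR). Its adjusted p stayed below 0.05 under every alternative, with log2 changes from -2.26 to -1.73. The steroidogenic marker sum, given above, was 0.145, 0.214 and 0.170 CPM in the serum-free libraries and 0.106, 0.163 and 0.386 CPM in the treated ones. These sums rest on few counts, since 3 counts corresponded to 0.128 to 0.163 CPM in the cardiomyocyte libraries, and they show no trend that can be read.

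Abca1 and Abcg1, the efflux transporters, did not pass the test. Abca1 was at 170, 116 and 167 CPM in serum-free medium and at 136, 63.7 and 62.4 CPM with phenylephrine. The groups overlapped through the libraries that stood apart, serum-free replicate 2 and phenylephrine replicate 1 (log2 -0.79 ± 0.310, adjusted p = 0.183, edgeR). Without phenylephrine replicate 1 the change was -1.26 (adjusted p = 0.0118, edgeR), and without both it was -1.42 (adjusted p = 2.03e-05, edgeR), while over all alternatives the adjusted p ran from 2.03e-05 to 0.442. Abcg1 was at 96.7, 63.7 and 106 CPM and then at 80.4, 54.8 and 56.7 CPM (log2 -0.47 ± 0.219, adjusted p = 0.252, edgeR), and without both libraries its change was -0.86 (adjusted p = 1.5e-05, edgeR). The leukocyte marker sum was 149, 180 and 176 CPM in serum-free and 146, 113 and 111 CPM in treated cardiomyocytes. Of its 10 genes, 3 (Ptprc, Fcer1g and Laptm5) were lower with the drug, against 1.84% of all tested genes. The part of these markers, and of the fibroblast markers above, in the values of Star, Abca1, Abcg1 and the synthesis genes was not tested. Stard4, Npc1, Npc2, Nr1h2 and Nr1h3 gave 0.46, -0.26, -0.18, -0.24 and -0.11, none past the test.

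In fibroblasts phenylephrine changed 1 of the 32 genes by this test. Sc5d fell from 271 and 213 CPM to 167 and 173 CPM, with no overlap (1.42-fold lower, log2 -0.51 ± 0.113, adjusted p = 0.0312, edgeR). No gene of the 32 rose by edgeR or DESeq2 (1 at an unadjusted p below 0.05), while 12 were lower at an unadjusted p below 0.05 and 2 by DESeq2. Of all tested genes 1.77% were called lower and 2.06% higher. The Sc5d call was lost without serum-free fibroblast replicate 1, either treated fibroblast library or phenylephrine cardiomyocyte replicate 2, where its adjusted p was 0.285, 0.25, 0.183 and 0.0582 (edgeR). Without serum-free fibroblast replicate 2, 7 genes were lower.

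Most fibroblast estimates for synthesis genes were below 0, in 17 of 19 genes, with a median of -0.24. In 13 of the 19 both treated libraries lay below both serum-free libraries, against 27.8% of all genes. The serum-free pair was uneven: replicate 1 was above replicate 2 in 19 of 19 synthesis genes and in 26 of all 32. The median log2 ratio of the 19 genes to the serum-free mean was 0.13 and -0.15 in the serum-free libraries and -0.26 and -0.24 in the treated ones. Nsdhl, from 178 and 142 CPM to 123 and 127 CPM (log2 -0.36 ± 0.0948, adjusted p = 0.0632, edgeR), and Hsd17b7, from 39.4 and 33.8 CPM to 27.2 and 31.0 CPM (-0.33 ± 0.0977, adjusted p = 0.0918, edgeR), came nearest to the threshold after Sc5d. Star was at 0.677 and 0.608 CPM with the drug.

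**Figure D4:**
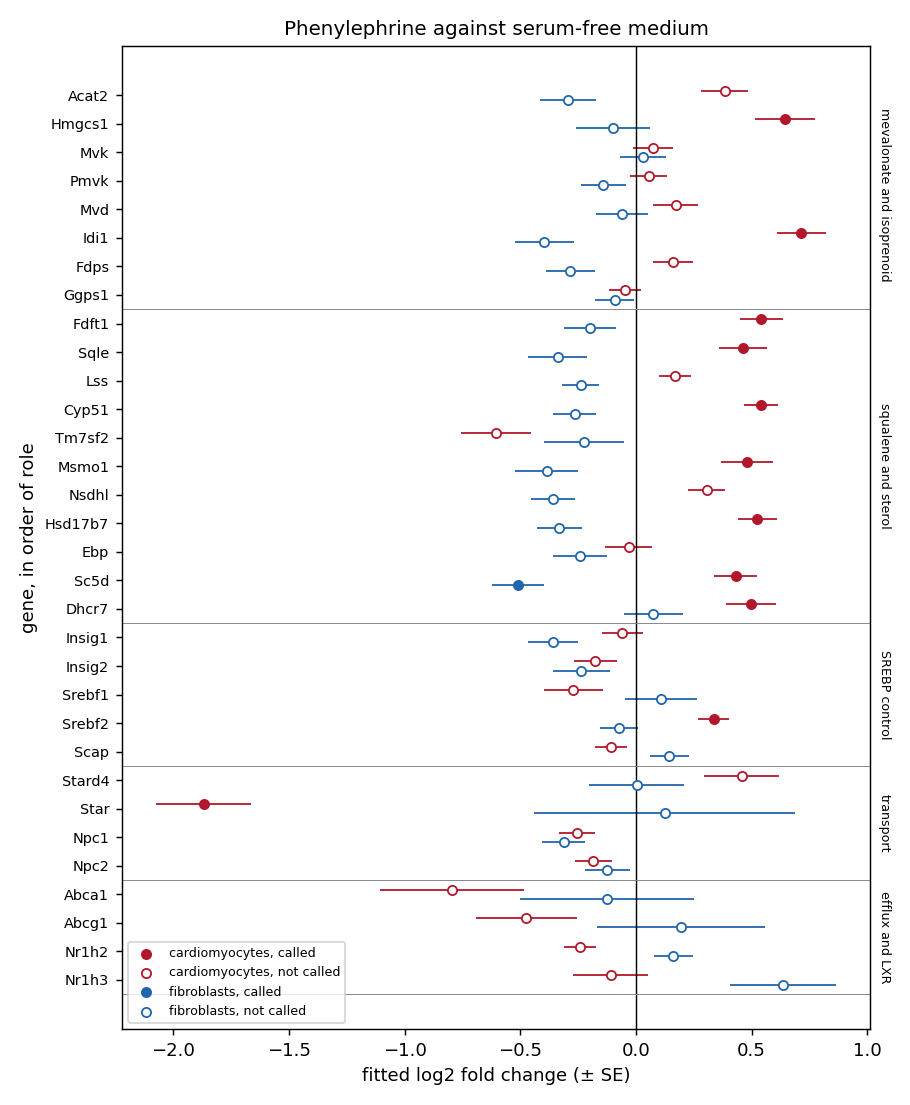
Fitted log2 change with phenylephrine (x axis, points with SE bars) for each of the 32 genes, in red for cardiomyocytes and blue for fibroblasts, with filled points called by edgeR. In the squalene and sterol genes most red points lie above 0 and most blue points below it, as for Cyp51 at 0.54 and -0.26.

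The last comparison tested whether the phenylephrine effect differed between the cell types. It did for 9 of the 32 genes, all synthesis genes and all with the more positive change in cardiomyocytes, against 1.63% of all tested genes in that direction and 1.62% in the other. No gene of the 32 had a lower effect by edgeR (4 at an unadjusted p below 0.05, and 1 by DESeq2). The median difference over the 19 synthesis genes was 0.66, and 18 of the 19 estimates were above 0. In 14 of the 19 the estimate was above 0 in cardiomyocytes and below 0 in fibroblasts.

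Idi1 had the largest difference of the 9, log2 1.11 ± 0.167 (adjusted p = 0.00766, edgeR), made of 0.72 in cardiomyocytes and -0.40 in fibroblasts. Cyp51 differed by 0.81 ± 0.118 (adjusted p = 0.00599, edgeR) from changes of 0.54 and -0.26, and Hsd17b7 by 0.86 ± 0.129 (adjusted p = 0.00625, edgeR) from 0.53 and -0.33. Sc5d was the only one of the 32 called in each cell type on its own, upward in cardiomyocytes and downward in fibroblasts, and differed by 0.94 ± 0.147 (adjusted p = 0.00791, edgeR). Fdft1, Sqle and Msmo1 differed by 0.74, 0.80 and 0.86, with adjusted p-values of 0.0224, 0.0286 and 0.029 (edgeR). Nsdhl and Acat2, which passed the test in neither cell type alone, differed by 0.66 ± 0.124 (adjusted p = 0.0172, edgeR) and 0.68 ± 0.157 (adjusted p = 0.0447, edgeR). Hmgcs1, Dhcr7 and Srebf2, called in cardiomyocytes, did not pass here, with differences of 0.74, 0.42 and 0.41 and adjusted p-values of 0.0872, 0.203 and 0.0646 (edgeR). The difference for Star, -1.99 ± 0.616, also missed the threshold (adjusted p = 0.109, edgeR).

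These calls moved with single libraries as well, and so did the number of all genes called, given at the end. Without phenylephrine fibroblast replicate 1 none of the 9 was called, and without replicate 2 there were 2. Without phenylephrine cardiomyocyte replicate 2 there were 4, without phenylephrine cardiomyocyte replicate 3, replicate 1 of the serum-free cardiomyocytes or replicate 1 of the serum-free fibroblasts there were 5, and without serum-free cardiomyocyte replicate 3 there were 6. Without both cardiomyocyte libraries that stood apart there were 16 higher and 8 lower.

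Companion genes of neighbouring pathways were set beside the members. Of all tested genes, 1.79% were called higher and 1.84% lower with phenylephrine in cardiomyocytes. Of 14 tested lipogenic SREBP targets, 3 rose with phenylephrine in cardiomyocytes and none fell: Fads2, Fads1 and Elovl5, which desaturate and elongate polyunsaturated fatty acids, changed by 0.29, 0.37 and 0.32 on the log2 scale (adjusted p = 0.0212, 0.0236 and 0.0263, edgeR). At an unadjusted p below 0.05 there were 5 higher and 1 lower, and by DESeq2 there were 4 and 0. Of 25 tested sterol carrier and lipoprotein genes, Tmem97, an SREBP target that binds NPC1, rose by 0.38 (adjusted p = 0.0404, edgeR) and Gramd1b, a sterol transfer protein, changed by -0.42 (adjusted p = 0.0414, edgeR). Of 15 tested oxysterol and LXR genes, Smpdl3a, an LXR target, changed by -0.55 (adjusted p = 0.0372, edgeR) and none rose (0 also at an unadjusted p below 0.05 and by DESeq2). The lists of SREBP processing (11 genes), the isoprenoid branches (12) and steroidogenesis (5) held no call by edgeR, with 1 isoprenoid gene lower at an unadjusted p below 0.05 and by DESeq2.

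In fibroblasts, Tspo, a mitochondrial cholesterol-binding protein, was the only one of the 82 tested companion genes called, at 0.33 (adjusted p = 0.0308, edgeR), against 2.06% of all genes higher and 1.77% lower. In the difference between cell types Smpdl3a was the only one, at -0.97 (adjusted p = 0.0421, edgeR), against 1.63% of all genes higher and 1.62% lower. Between the cell types in serum-free medium, 10 of the 14 lipogenic genes were lower in cardiomyocytes, among them Aacs at -1.55 and Acly, ATP citrate lyase, at -1.31, and 2 were higher, with Acacb, the mitochondrial acetyl-CoA carboxylase, at 5.99. Of all tested genes 31.7% were lower and 34.5% higher in that comparison. Among sterol carriers 11 of 25 were lower and 6 higher, with Vldlr at -1.46, Scarb1 at -1.04 and Stard5 at 1.69. Of 11 SREBP processing genes 5 were lower and 3 higher, of 12 isoprenoid genes 2 and 5, of 15 oxysterol and LXR genes 4 and 5, and of 5 steroidogenesis genes 1 and 2. No list was tested against all genes. With phenylephrine 9 of the 14 lipogenic genes were lower in cardiomyocytes and 3 higher, against 31.2% and 33.7% of all genes.

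Some single values are uncertain in identity. Acat2, Fdps, Idi1, Cyp51 and Nsdhl have a near copy or pseudogenes in RefSeq, and how reads shared with these were counted is not given in the sources used here. Nr1h3, Srebf1, Idi1 and Npc1 overlap the protein-coding genes Acp2, Rai1, Wdr37 and Rmc1, and the sources used here do not state whether counting used strand.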

How the data were processed

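Gene counts of 10 libraries were taken as deposited by the authors, as raw counts per gene symbol. Per the submitters' processing notes, the tools were cutadapt, TopHat2 2.0.10, HTSeq 0.6.1p1 and DESeq2 1.6.3, with the rat build Rnor_6.0; their order and settings, and whether counting used strand, are not given in the sources used here. Another 10 per-library columns, which hold the counts divided by a size factor, were not used.

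Counts were analysed in R 4.3.3 with edgeR 4.0.16 (TMM factors, filterByExpr with a minimum count of 10 and a minimum total of 15, robust quasi-likelihood fit with 1 coefficient for each of the 4 groups over all 10 libraries). The 5 contrasts were the cell types in each medium, phenylephrine in each cell type and the difference of the phenylephrine effects. Benjamini-Hochberg adjustment ran over all 13869 tested genes. SE is that of the fitted log2 value. The code was tested on simulated data. Alternative settings were DESeq2 1.42.0, relative log expression factors, no filter, the compared groups alone, a replicate block, each library left out and, chosen after seeing the data, library size alone and both cardiomyocyte libraries that stood apart left out. Counts limit precision through counting error only as far as reads are independent molecules.

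All 32 genes are described. Values per library are given for genes called in a phenylephrine contrast and for the 4 genes of smallest adjusted p in each cell type contrast, and up to 3 called genes are named per companion list; the other genes were printed by role. The members and lists were chosen with earlier results of these data known. Promoter windows came from RefSeq on GRCr8, another build than that of the counts, matched by gene symbol.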

Additional observations from a re-analysis of the deposited data

Results flagged for a closer look

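The phenylephrine effect differed between cardiomyocytes and fibroblasts for 9 of the 32 genes, by the edgeR test of the difference itself in log2 units. The differences were 1.11 for Idi1, 0.94 for Sc5d, 0.86 for Hsd17b7, 0.86 for Msmo1, 0.81 for Cyp51, 0.80 for Sqle, 0.74 for Fdft1, 0.68 for Acat2 and 0.66 for Nsdhl, each more positive in cardiomyocytes. Hsd17b7 and Idi1 were called in 15 of the 16 alternatives that give this contrast, Cyp51 and Sc5d in 14, Nsdhl in 12, Fdft1 in 10, Sqle in 9, Msmo1 in 8 and Acat2 in 7.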

How the results depend on the processing

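Over 160 pairs of gene and comparison there were 2688 alternative values. Of these, 2462 kept their side of the threshold, 124 lost and 102 gained a call, and none changed direction while called. Among the 2462, 42 changed sign but were called in neither. Only Abca1, in cardiomyocytes and in the difference, moved by over 1.5 times. The counts of the cell type comparisons stayed within 1.5 times throughout. With phenylephrine in cardiomyocytes, the genes called higher (10) were 4 with the compared groups alone and 6 with the replicate block. Those called lower (1) were 2 by DESeq2, 2 with the block, 2 with library size alone and 8 without both libraries that stood apart. All genes called (503) were 968, 91 (groups alone), 197 (block) and 3486 (both left out). In fibroblasts the genes called higher (0) were 1 without both libraries. Those called lower (1) were 2 by DESeq2, 2 without the filter, 3 with the groups alone, 0 with the block and 8 without both libraries, and all genes called (531) were 1306 with the groups alone, 225 with the block and 2056 without both. For the difference, genes called higher (9) were 16 without both libraries, and those called lower (0) were 1 by DESeq2, 1 with the block, 1 with library size alone and 8 without both. All genes called (451) were 790 by DESeq2, 198 with the block and 2657 without both. Leaving out each library in turn gave, in cardiomyocytes, 1 to 14 genes higher, 1 to 5 lower and 32 to 2371 of all genes. It gave 0 to 7 lower and 112 to 919 of all genes in fibroblasts, and 0 to 12 higher, 0 to 2 lower and 71 to 1290 of all genes for the difference. The cause of these shifts was not tested.

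Same-numbered libraries showed no clear pairing. Their deviations from the group means correlated across genes at -0.22, -0.10 and 0.02 in cardiomyocytes and -0.04 in fibroblasts, and not every library correlated best with its own number. Deviations within groups of 2 or 3 libraries cancel out, and 2 libraries stood apart. These values therefore cannot decide whether same-numbered libraries shared a preparation. With the block, 25 of 25 calls were kept between cell types in serum-free medium, 20 of 23 with phenylephrine, 7 of 11 in cardiomyocytes, 0 of 1 in fibroblasts and 6 of 9 for the difference. Groups of 2 and 3 libraries, of which 2 stood apart, limit what the phenylephrine comparisons can detect. Star in fibroblasts, at 0.417 to 0.759 CPM, rests on few counts.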
